A study of Solanum lycopersicum with 9 samples.

Results

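The 100 most abundant transcripts of the tomato shoot apex were described in 3 zones, the leaf primordium (LP), the peripheral zone (PZ) and the central zone (CZ). They are the 100 genes of the expression table with the highest mean normalized count over 9 libraries, out of 34866 genes listed and 22708 with at least 1 read, after 68 genes that the study tabulated as photosynthesis, plastid or developmental genes were left out. Of those 68 genes, 4 would otherwise have stood among the first 100: PSBR, a protein of photosystem II, with a mean of 94.6, RBCS, the small subunit of Rubisco, with means of 79.5 and 52.4 for its genes, and the antenna protein LHCB1.3 with a mean of 62.4. Each zone was sequenced in 3 libraries (LP1 to LP3, PZ1 to PZ3 and CZ1 to CZ3), each a biological replicate of 3 pooled sections 10 µm thick from untreated seedlings of the line M82 SP+, 12 to 14 days old and grown in days of 11 h of light with nights of 13 h. The zones were cut out by laser under the guidance of chlorophyll fluorescence. The LP cells had highly developed thylakoids and chlorophyll, the PZ cells partly developed ones, and the CZ cells held proplastids and no chlorophyll, so the zones overlap with the meristem regions of those names rather than being drawn by a gene marker.

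The shoot apical meristem is the source of all leaves and stems. Stem cells are kept in its central zone, their descendants divide faster in the peripheral zone, and leaf primordia grow out at its flanks, where proplastids turn into chloroplasts. CEL-Seq, the method used here, barcodes each sample, amplifies its RNA linearly from a T7 promoter and reads only the 3′ end of each transcript. A level therefore counts transcript ends and is not divided by gene length, so levels of long and short genes can be set side by side. The normalized count is the number of reads on a gene divided by 1 factor per library. The reads on genes ranged from 40286 in LP3 to 144665 in CZ1. In bulk tissue such as this, fewer cells of a type and less RNA per cell cannot be told apart.

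The zone labels were set against 8 marker genes, which the study itself reported on these samples. The 4 meristem markers (STM and CUC2, which maintain the meristem and its boundaries, and a pair of FD genes) summed to 11.2 to 16.4 in the LP libraries, 31.0 to 57.8 in the PZ libraries and 51.9 to 64.0 in the CZ libraries. Not each marker followed the sum, and CUC2 had a mean of 16.8 in PZ and 14.4 in CZ. In CZ3, CUC2 had 7.66 and the FD gene Solyc02g061990.2 had 1.70, beside 6.55 and 2.18 in LP3. STM, at 17.0, and the other FD gene, at 25.5, were well above LP3 in that library. YABBY1 and YABBY3 mark the lower side of the leaf, the side from which LP was cut. They summed to 26.3 to 47.0 in LP, 13.8 to 23.0 in PZ and 2.55 to 17.6 in CZ. The RBCS genes summed to 167 to 259 in LP, 76.3 to 111 in PZ and 41.2 to 153 in CZ, where the highest value was that of CZ2. All 8 markers had reads in every library, and their part in the results was not tested.

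The abundant transcripts were present throughout the apex. All 100 had reads in all 9 libraries, which was so for 3555 genes of the table, and all 100 passed the minimum for testing (a value of 6 or more in any library), which 4044 genes passed. Their means over the 9 libraries ranged from 43.5 to 208, with a median of 66.2. Across all genes with reads the median was 0.592. None of the 100 was encoded by the plastid genome, which contributes 141 genes to the table, 2 of them among the genes tested. How well the method captures plastid transcripts was not tested, so their absence from the list does not measure plastid transcription. The levels chose these genes and are therefore a description.

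The most abundant transcript in each zone was that of Solyc01g099410.2, a gene of 1165 bases at chr1:89677054-89678218 (assembly SL2.50, as for all positions here). It had 180, 197 and 227 normalized counts in LP1 to LP3, 237, 196 and 194 in PZ1 to PZ3, and 165, 214 and 261 in CZ1 to CZ3. The zones overlapped fully, and the gene took 0.396% to 0.594% of the reads of a library. Solyc01g099770.2 ranked next, with 136, 193 and 173 in LP, 118, 223 and 189 in PZ, and 103, 214 and 214 in CZ. In each zone its replicate 1 was the lowest of the 3 libraries. Solyc02g077480.1, on chromosome 2, followed with 156, 126 and 165 in LP, 222, 164 and 157 in PZ, and 136, 193 and 197 in CZ, again with full overlap.

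The genes ranked 4 to 10 were Solyc11g020960.1, Solyc11g066430.1, Solyc10g008910.1, Solyc11g007920.1, Solyc05g055440.1, Solyc06g073430.2 and Solyc04g011390.1, and the means of the first 10 ran from 112 to 208. None of the 10 was called different between any zones. Solyc11g020960.1 had 99.8, 139 and 150 in LP, 150, 166 and 177 in PZ, and 136, 213 and 216 in CZ. The LP and CZ ranges overlapped only through CZ1 (log2 fold change -0.53 ± 0.21 (SE), adjusted p = 0.308 by limma). Solyc04g011390.1 was the most even of the 10 within LP, at 102, 103 and 102, against 103, 112 and 159 in CZ, where only CZ3 stood apart. Between ranks, the drop in level was gradual: the 3 genes at the end of the list had means of 44.3, 44.2 and 43.5 (Solyc01g104370.2, Solyc10g085480.1 and Solyc02g084240.2), and the 3 that just missed it had 43.1, 43.0 and 42.9 (Solyc03g112850.2, Solyc10g084310.1 and Solyc01g104590.2). These steps are far smaller than the spread of each gene between libraries.

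**Figure D1:**
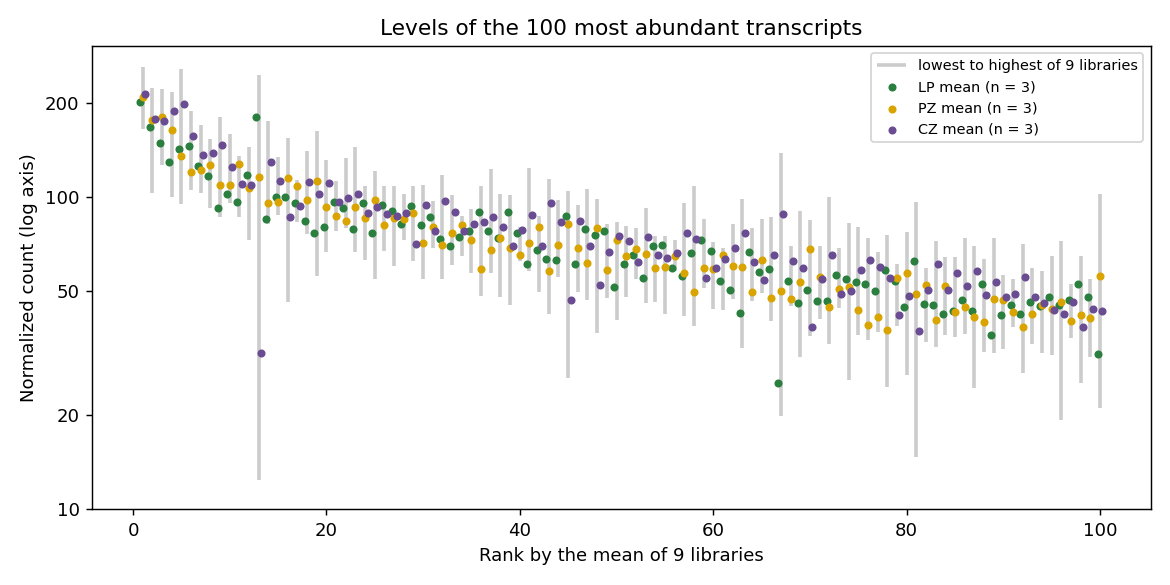
Normalized counts (log axis) of the 100 most abundant transcripts in order of their mean over 9 libraries. Points are the means of LP, PZ and CZ (n = 3 each) and grey lines run from the lowest to the highest library. Zone means mostly lie close together, and the clearest exceptions are Solyc07g007760.2 at rank 13 (LP 180, CZ 31.7) and Solyc01g100030.2 at rank 67 (LP 25.3, CZ 88.3).

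Each zone ranked largely the same genes at the top. Among the 100 genes of highest mean in a zone itself, 91 belonged to the list in LP, 88 in PZ and 90 in CZ, with the 68 tabulated genes left out of each ranking, and 74 members stood in the first 100 of all 3 zones. In all, 129 genes stood in the first 100 of at least 1 zone. The list member with the lowest standing in any zone ranked 207 in LP, 126 in PZ and 171 in CZ. These overlaps follow in part from the way the list was built, since each zone entered the mean.

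The 100 genes, 0.440% of the genes with reads, took between 15.4% and 20.7% of the reads of a library. Their share was 16.6%, 15.4% and 17.4% in LP1 to LP3, with a mean of 16.5% ± 0.981 (SD, n = 3). It was 16.2%, 16.1% and 15.7% in PZ1 to PZ3, with a mean of 16.0% ± 0.233, and 15.7%, 18.8% and 20.7% in CZ1 to CZ3, with a mean of 18.4% ± 2.55. The CZ mean was the highest, but the libraries of the 3 zones overlapped, because CZ1, the library with the most reads on genes, lay with the lowest. For CZ3 the Wilson 95% interval was 20.4% to 21.1% and for CZ1 it was 15.5% to 15.9%, so the libraries of CZ differed by far more than counting error, the only error that these intervals cover. The share was not tested, since the genes were chosen by their level.

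The 10 most abundant genes took 2.98%, 2.81% and 3.47% of the reads in LP, 3.32%, 3.22% and 2.97% in PZ, and 2.93%, 4.16% and 4.43% in CZ. The same libraries, CZ2 and CZ3, were high. The genes ranked 51 to 100 took 5.26% to 5.70% in the PZ libraries and 5.94% to 7.23% in the CZ libraries, without overlap, while LP, at 5.29% to 6.09%, overlapped with both. This was the one set of ranks compared in which the libraries of a pair of zones did not overlap.

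**Figure D2:**
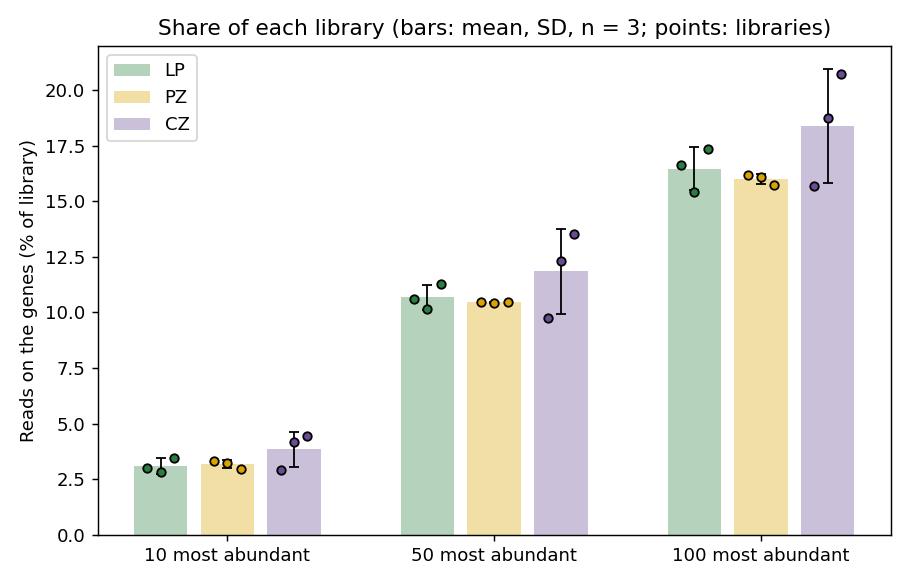
Share of the reads of a library (%) on the 10, 50 and 100 most abundant genes in LP, PZ and CZ. Points are libraries, bars are means with SD (n = 3). PZ varied least (15.7% to 16.2% for the 100 genes), and the CZ libraries spread from 15.7% to 20.7%.

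CZ3 was the library in which the most of these genes peaked. Of the 100 genes, 41 had their highest normalized count in CZ3, 16 in LP3, 14 in CZ2 and none in CZ1, and by share of reads 42 peaked in CZ3 and 5 in CZ1. The peak in CZ3 was thus seen on both scales. CZ3, with 51659 reads on genes, and LP3, with 40286, had the fewest, and CZ1, with 144665, had the most. Whether the number of reads bears on the peaks was not tested. The highest zone mean was in LP for 26 genes, in PZ for 20 and in CZ for 54. Zone means differed by less than 1.5-fold for 92 genes between LP and CZ, for 92 between PZ and CZ and for 95 between LP and PZ. Most of these transcripts were thus about as abundant in 1 zone as in another. The rule favours this, since it left out genes that the study chose for their differences. The same counts over all genes tested are not given here, so evenness is not shown to be particular to the list. Over the 9 libraries the coefficient of variation (CV) ran from 8.41% to 68.8%, with a median of 21.0%, and the CV expected from counting alone had a median of 10.1%. The highest library was under 2 times the lowest for 55 of the 100 genes and over 3 times the lowest for 10.

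Between LP and CZ, 3 of the 100 transcripts were called different: Solyc07g007760.2 and Solyc01g109660.2 rose in LP and Solyc01g100030.2 fell. A transcript was called where zones differed at least 1.5-fold with an adjusted p no higher than 0.05 (limma on log2(normalized count + 1), Benjamini-Hochberg over all 4044 genes tested). Of all genes tested, 58 or 1.43% were called, 48 (1.19%) higher in LP and 10 (0.247%) lower. A count of 3 is too small to set against these shares, and the rule bears on it: with the tabulated genes, which the study chose for their differences, kept in the ranking, 7 of the first 100 were called.

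Solyc07g007760.2, at chr7:2394267-2396320 (2054 bases), was the most variable of the 100 transcripts. It had 175, 246 and 118 normalized counts in LP1 to LP3, 73.2, 130 and 144 in PZ1 to PZ3, and 12.4, 55.4 and 27.2 in CZ1 to CZ3. Every LP and every PZ library was above every CZ library, whereas LP and PZ overlapped. The mean was 180 ± 63.9 in LP, 116 ± 37.4 in PZ and 31.7 ± 21.8 in CZ (SD, n = 3 each), which is 5.67 times as high in LP as in CZ. The log2 fold change was 2.64 ± 0.25 (SE) between LP and CZ (adjusted p = 7.68e-22) and 2.01 ± 0.25 between PZ and CZ (adjusted p = 6.93e-12). Between LP and PZ it was 0.63 ± 0.25 (adjusted p = 0.536), and no difference was called. Without CZ1, its lowest library, the log2 fold change of LP against CZ was 2.12, and the call was kept when any 1 library was left out.

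Solyc01g100030.2, at chr1:90109000-90110585 (1586 bases), went the other way. It had 23.3, 19.9 and 32.8 in LP, 62.5, 45.2 and 42.1 in PZ, and 67.8, 59.4 and 138 in CZ. All LP libraries lay below all PZ and CZ libraries, and PZ overlapped with CZ. The mean was 25.3 ± 6.66 in LP, 49.9 ± 11.0 in PZ and 88.3 ± 43.1 in CZ (SD, n = 3 each). The log2 fold change was -1.69 ± 0.29 (SE, adjusted p = 5.54e-06) for LP against CZ. For LP against PZ it was -0.96 ± 0.29 (adjusted p = 0.227) and for PZ against CZ -0.73 ± 0.29 (adjusted p = 0.567), neither called. Leaving out CZ3, its highest library, gave -1.32 for LP against CZ, still called.

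Solyc01g109660.2, at chr1:96560713-96562195 (1483 bases), had 72.5, 104 and 83.0 in LP, 73.2, 100 and 71.7 in PZ, and 44.4, 69.4 and 26.4 in CZ. LP and PZ were alike in range and both lay above CZ, though only by a small gap from CZ2. The log2 fold change was 0.97 ± 0.27 (SE, adjusted p = 0.0248) for LP against CZ and 0.88 ± 0.27 (adjusted p = 0.162) for PZ against CZ. This was the least secure of the calls. It was lost without LP1 (adjusted p = 0.0677), without LP2 (0.251), without LP3 (0.0874) and without CZ3 (0.624), and also in edgeR (0.167) and DESeq2 (0.0976). In limma it was lost as well with no filter (0.0521), a filter on the zone mean (0.0749), TMM scaling (0.118) and only LP and CZ in the fit (0.290). The call was kept in 10 of 21 alternatives. Over all its alternatives the adjusted p ranged from 0.00204 to 0.624.

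A limit bears on all 3 calls. limma took the variance of a gene wholly from the trend shared by genes of the same level, and with each gene's own variance over the 9 libraries, an alternative chosen after seeing the data, none of the 100 genes was called in any comparison (adjusted p = 0.429 for Solyc07g007760.2 and Solyc01g100030.2 and 0.554 for Solyc01g109660.2 between LP and CZ). An exact permutation test of 3 against 3 libraries cannot go below a two-sided p of 0.1, so separate ranges alone cannot reach 0.05.

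**Figure D3:**
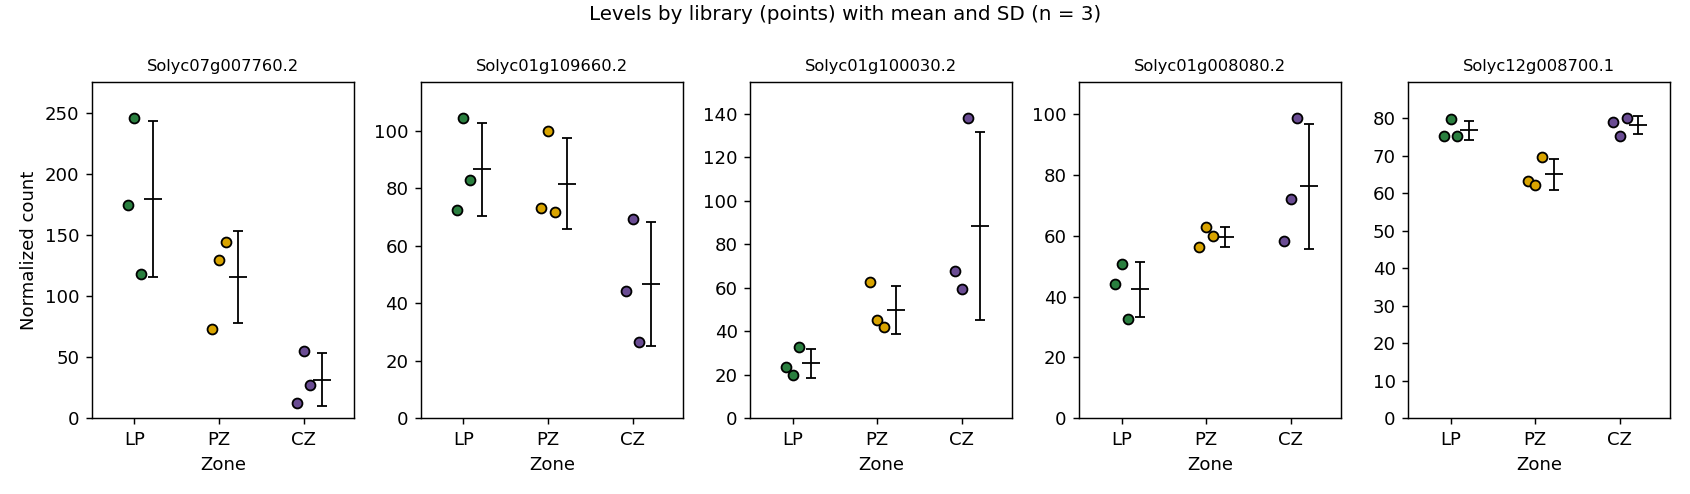
Normalized counts by library (points) in LP, PZ and CZ, with the mean and SD (n = 3) beside them, for the 3 called transcripts, the ribosomal protein S27 gene Solyc01g008080.2 and the steady Solyc12g008700.1. Solyc07g007760.2 and Solyc01g109660.2 were higher in LP than in CZ, Solyc01g100030.2 was lower, and Solyc12g008700.1 stayed between 62.2 and 80.0.

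Most members whose libraries separated LP from CZ did not pass the test. In 5 genes every LP library was above every CZ library and in 13 every LP library was below, 18 of 100 in all with the 3 called genes among them, against 15.5% of the genes tested (8.95% higher and 6.58% lower). At an unadjusted p of at most 0.05 there were 12 members, the 3 called ones included, 4 higher and 8 lower in LP, against 9.52% of the genes tested. Solyc06g073430.2, rank 9, had 85.9, 98.97 and 91.8 in LP and 103, 157 and 180 in CZ (log2 fold change -0.63 ± 0.23 (SE), adjusted p = 0.199). Without CZ1, whose value lay nearest to LP, it was -0.86 (adjusted p = 0.0388) and would be called. Without CZ2 it was -0.56 (adjusted p = 0.502) and without CZ3 -0.47 (adjusted p = 0.847), and no other alternative called this gene. Solyc11g072860.1, rank 14, had 83.3, 82.1 and 88.5 in LP and 90.6, 122 and 174 in CZ (-0.55 ± 0.24, adjusted p = 0.380). In both genes the CZ libraries differed from each other more than the zones did at their nearest points. Of the uncalled genes named here, those higher in LP had smaller log2 fold changes. In both directions their nearest LP and CZ libraries were only a few counts apart. Solyc08g006890.2 had 88.1, 85.1 and 108 in LP and 67.8, 81.4 and 62.1 in CZ, and Solyc05g008010.2 had 80.8, 85.7 and 102 in LP and 70.4, 65.4 and 72.3 in CZ. Solyc08g083120.2 had 48.4, 59.1 and 53.5 in LP and 43.3, 38.7 and 43.4 in CZ. The log2 fold changes of the 3 genes were 0.41, 0.36 and 0.35, with adjusted p from 0.649 to 0.790.

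Between PZ and CZ, 1 of the 100 transcripts was called, Solyc07g007760.2, which rose in PZ as given above, and 10 members had an unadjusted p of at most 0.05, against 6.4% of the genes tested. Of all genes tested 13 were called (0.321%), 9 (0.223%) higher in PZ and 4 (0.0989%) lower. In DESeq2 the adjusted p of Solyc07g007760.2 was 0.419 and with only the PZ and CZ libraries in the fit it was 0.709, so the call was lost in both. PZ and CZ did not overlap for 11 members, 5 higher and 6 lower in PZ, against 10.9% of the genes tested (6.68% higher and 4.23% lower). Solyc11g066130.1 had 49.3, 84.4 and 70.3 in PZ and 37.8, 41.4 and 35.7 in CZ (log2 fold change 0.78 ± 0.29 (SE), adjusted p = 0.491). The CZ libraries of this gene were close together and PZ1 was the nearest to them. Solyc11g072840.1 had 34.7, 43.7 and 38.6 in PZ and 47.6, 74.0 and 67.2 in CZ (-0.66 ± 0.29, adjusted p = 0.701), and its highest PZ library lay just below its lowest CZ library. In 3 further genes the libraries were separate by smaller differences. Solyc08g083120.2 had 60.9, 45.9 and 57.9 in PZ and 43.3, 38.7 and 43.4 in CZ (0.38 ± 0.29, adjusted p = 0.880). Solyc08g076340.2 had 37.0, 39.2 and 47.6 in PZ and 50.5, 62.7 and 66.4 in CZ, and Solyc06g007610.2 had 35.5, 43.7 and 49.6 in PZ and 56.0, 64.0 and 51.04 in CZ. The last 2 differences did not pass the test either (adjusted p = 0.784 and 0.869).

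Between LP and PZ, none of the 100 transcripts was called by limma, by edgeR or by DESeq2. At an unadjusted p of at most 0.05 there were 6 members in limma, 3 higher and 3 lower in LP, against 7.07% of the genes tested. Of all genes tested limma called 6 (0.148%), 5 (0.124%) higher in LP and 1 (0.0247%) lower. LP and PZ did not overlap for 16 members, 8 in each direction, against 11.4% of the genes tested (5.46% higher and 5.93% lower in LP). Solyc12g043160.1 had 49.7, 68.8 and 56.8 in LP and 24.7, 41.5 and 46.2 in PZ (log2 fold change 0.66 ± 0.29 (SE), adjusted p = 0.598), and CZ, at 41.0, 75.4 and 48.5, overlapped with both. Solyc12g010350.1 had 80.8, 91.1 and 97.2 in LP and 69.4, 48.1 and 58.6 in PZ (0.61 ± 0.26, adjusted p = 0.549). Solyc10g006560.2 had 72.5, 62.8 and 63.4 in LP and 61.7, 38.5 and 48.3 in PZ (0.44 ± 0.27, adjusted p = 0.778). In all 3 the PZ mean was also below the CZ mean. In the other direction Solyc10g078630.1, a gene of only 398 bases, had 61.8, 40.4 and 52.4 in LP and 71.7, 70.3 and 76.6 in PZ (-0.51 ± 0.27, adjusted p = 0.714).

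The fold changes of the list as a whole lay close to 0, with more genes below than above it in LP and PZ against CZ. The median log2 fold change of the 100 genes was -0.11 for LP against CZ, beside 0.02 over all genes tested, and 34 of the 100 were above 0. For PZ against CZ it was -0.14, beside 0.08 over all genes tested, with 32 above 0, and for LP against PZ it was 0.03, beside -0.04, with 56 above 0. The comparisons share libraries, so these counts are not independent of each other. With TMM scaling, which moved the median of all genes tested by -0.10, -0.19 and 0.09 in the 3 comparisons, the members lay at -0.16, -0.28 and 0.10 relative to that median, against -0.13, -0.21 and 0.07 with the deposited scaling. The members above 0 then numbered 21, 9 and 66, and with the same total for each library 32, 21 and 58. The medians of the members kept their direction under these scalings, while the counts above 0 changed. Over all genes tested the medians under TMM scaling were -0.08, -0.12 and 0.05, opposite in sign to those with the deposited scaling. The medians against CZ also moved with CZ3. Without that library the members' median was -0.02 for LP against CZ and -0.04 for PZ against CZ, beside 0.01 and 0.04 over all genes tested, and without CZ1 it was -0.25 and -0.24, beside 0.07 and 0.11.

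**Figure D4:**
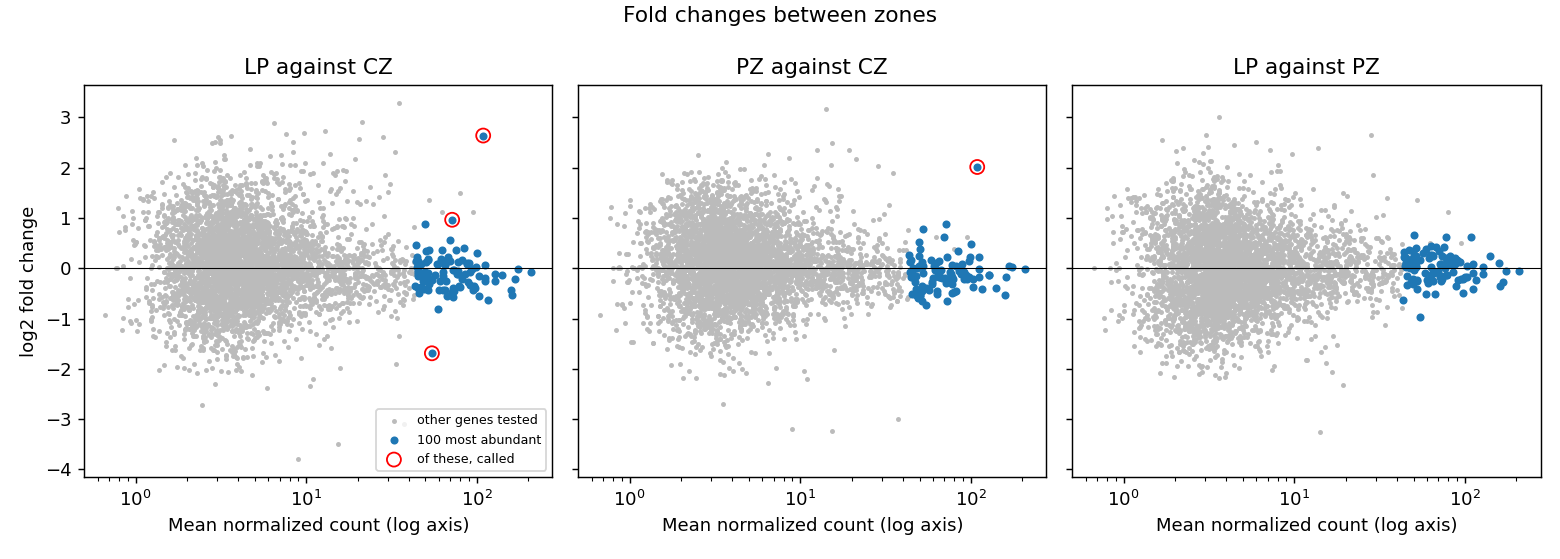
log2 fold change (LP against CZ, PZ against CZ, LP against PZ) by mean normalized count (log axis) for the 4044 genes tested, with the 100 most abundant genes in blue and the called ones among them circled in red (3, 1 and 0). Fold changes scatter less at high counts, and the 100 genes crowd around 0.

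The steadiest transcripts varied no more than counting allows. Solyc01g099830.2 had the lowest CV, 8.41%, where counting alone gives 10.4%: it had 60.02, 59.7 and 57.9 in LP, 60.1, 64.4 and 69.6 in PZ, and 58.9, 72.7 and 67.2 in CZ. Solyc05g053440.2 had 81.6, 77.8 and 64.5 in LP, 78.6, 82.9 and 82.8 in PZ, and 71.5, 74.7 and 86.8 in CZ. Solyc12g008700.1 had 75.1, 79.7 and 75.4 in LP, 63.2, 62.2 and 69.7 in PZ, and 79.0, 75.4 and 80.0 in CZ. In the last of these every PZ library lay below every LP and CZ library. The log2 fold changes, -0.26 ± 0.26 (SE) for PZ against CZ and 0.24 ± 0.26 for LP against PZ, were about as large as their errors. limma took those errors from genes of the same level and not from this gene. Its own CVs within zones were 3.31% in LP, 6.22% in PZ and 3.12% in CZ (n = 3 each). At the other end of the range, beside the called genes Solyc07g007760.2 (CV 68.8%) and Solyc01g100030.2 (65.1%), stood Solyc02g084240.2 with 57.7%. It had 102 in PZ2 and 21.1 to 60.02 in the other 8 libraries, and a single library thus stood far above the rest.

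The study used 4 genes as references for quantitative PCR, and 2 of them are on this list. Such genes are taken to keep a level across samples and serve as the scale for others. Solyc06g005060.2, rank 52, had 59.6, 79.7 and 55.7 in LP, 77.1, 63.7 and 64.1 in PZ, and 54.5, 56.0 and 75.7 in CZ, a CV of 15.2%, the 15th lowest of the 100. Solyc12g010060.1, rank 95, had 49.7, 43.5 and 50.2 in LP, 64.8, 31.1 and 35.2 in PZ, and 37.5, 40.02 and 52.7 in CZ, a CV of 23.2%, above the median of the list. The zones overlapped in both, and no difference was called. A further 3 members were measured by quantitative PCR in the study, Solyc05g055440.1, Solyc01g111170.2 and Solyc09g010400.2, with CVs of 17.5%, 23.0% and 15.8%, and none was called between zones. The study states that it selected the genes to measure from those it listed as putatively different between zones. Its measurements of these 3 were not compared here.

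What these transcripts encode could be read for only 1 of them. The table and the readable annotations pair Solyc01g008080.2, rank 63, with ribosomal protein S27, a part of the small subunit of the cytosolic ribosome, and the other 99 are given by ID only. Ribosomal proteins are among the most strongly transcribed genes of dividing plant cells, since each new cell must double its ribosomes. Solyc01g008080.2 had 44.0, 50.7 and 32.8 in LP, 56.3, 62.9 and 60 in PZ, and 58.3, 72.0 and 98.7 in CZ. All LP libraries lay below all PZ and CZ libraries, and PZ overlapped with CZ. The difference did not pass the test (log2 fold change of LP against CZ -0.82 ± 0.28 (SE), adjusted p = 0.130, and of LP against PZ -0.50 ± 0.28, adjusted p = 0.723).

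The S27 gene spans chr1:2219439-2224108 and overlaps by 445 bases with Solyc01g008090.2, which carries the same description, so reads could have been assigned to either. Solyc01g008090.2, which is not on the list, had 28.1, 21.1 and 13.1 in LP, 21.6, 7.40 and 11.7 in PZ, and 16.1, 12.7 and 22.1 in CZ. It did not follow its neighbour, since LP1 was its highest library. Of the 109 genes tested that have a description, 6 are described as ribosomal proteins with no mention of a plastid or mitochondrion, with means from 4.48 to 59.5, and Solyc01g008080.2 was the only one abundant enough for the list. All 6 lie on chromosome 1, with IDs from Solyc01g008080.2 to Solyc01g010580.2, so they do not stand for the ribosomal protein genes at large. None of the 6 was called in any comparison. The log2 fold change was below 0 for 4 of them in LP against CZ (median -0.21), for all 6 in PZ against CZ (median -0.45) and for 1 in LP against PZ (median 0.39), beside medians over all genes tested of 0.02, 0.08 and -0.04.

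The abundant transcripts came from short genes. The gene spans, introns included, ranged from 398 to 4670 bases with a median of 1782.5, against 4148 for the genes tested and 2234 for all genes in the table. Spans under 1000 bases were found for 33 of the 100, against 7.37% of the genes tested and 25.5% of all genes in the table. The contrast was thus mainly with the other genes tested. Of the first 10 genes, 7 were that short, of the first 50 genes 20, and of the genes ranked 51 to 100, 13.

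**Figure D5:**
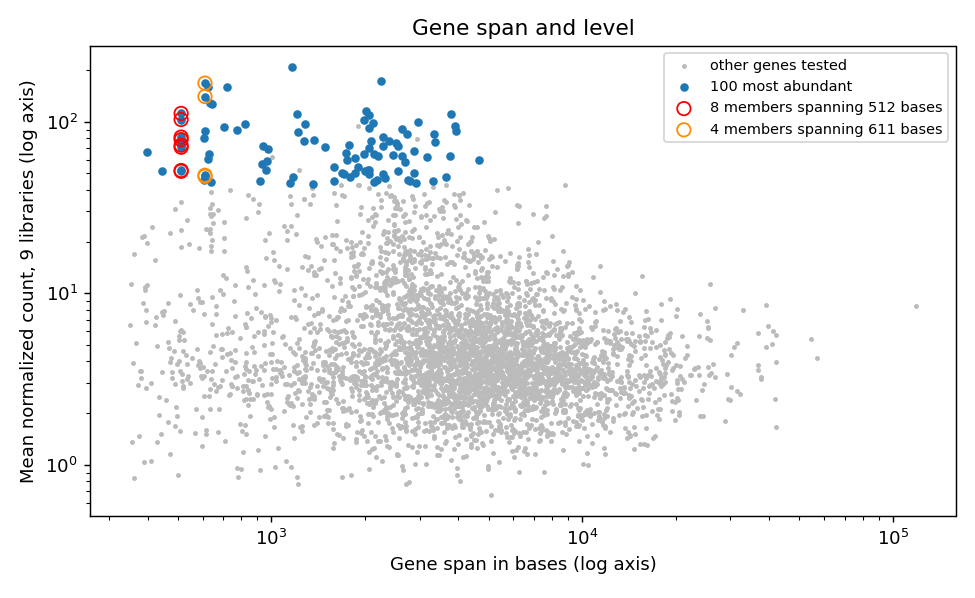
Mean normalized count over 9 libraries (log axis) against gene span in bases (log axis) for the 100 most abundant genes (blue) and the other genes tested (grey). Rings mark members of equal span, 8 of 512 bases and 4 of 611 bases. The 100 genes lie at 398 to 4670 bases, while other tested genes reach far longer spans.

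Several members had spans that were equal to the base. The most frequent was 512 bases, shared by 8 members, by 12 genes tested and by 57 genes of the table, 38 of which had no reads. A span of 611 bases was shared by 4 members, which were all of the 4 genes of that span tested, and 28 genes of the table. Spans of 608, 1981 and 2054 bases were shared by 2 members each, 18 members in such groups in all. Genes of equal span can be near-identical copies, and then reads of 36 bases could be split between them or lost. Without the sequences this was not tested, and the level of each such gene is uncertain to that extent. The same holds for the 11 members that overlap another gene of the table, 9 of them a gene with reads.

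The 8 members of 512 bases were Solyc04g011390.1, Solyc11g072860.1 and Solyc11g072840.1 and, on chromosome 6, Solyc06g005420.1, Solyc06g075830.1, Solyc06g075850.1, Solyc06g075930.1 and Solyc06g075960.1. Summed, which avoids the question of how reads were split between members, they had 568, 515 and 608 normalized counts in LP1 to LP3, 598, 573 and 585 in PZ1 to PZ3, and 598, 650 and 913 in CZ1 to CZ3. CZ3 stood apart from the other 8 libraries, and it was the highest library for 6 of the 8 genes. LP overlapped with CZ through LP3 and CZ1. The 8 genes took 1.09% to 2.08% of the reads of a library. The 4 members of 611 bases, on 4 chromosomes, among them Solyc02g077480.1 and Solyc10g008910.1 of the first 10, summed to 384, 321 and 438 in LP, 437, 386 and 355 in PZ, and 362, 474 and 493 in CZ, with overlap of all zones.

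The members were spread over all 12 chromosomes, and some lay close together. Chromosome 6 held 18 of the 100 genes, which is 4.29% of its 420 genes tested, and chromosome 1 held 16, or 2.76% of 579, where the 100 genes are 2.47% of all genes tested. Chromosomes 12 and 11, with 9 members each, came near to chromosome 6 at 3.96% and 3.93%, and chromosome 10 had 2.93%. The densest stretch was chr6:47103632-47151505, where 5 of 17 genes in 47874 bases were members: 4 of the genes of 512 bases and Solyc06g075800.1, with 641 bases. The means of these 5 ran from 44.4 to 81.5. Of the 12 genes between them, 7 had no reads at all, and the highest mean was 18.5. Abundant transcripts and genes with no read at this depth thus alternated within a single stretch.

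In this stretch the genes of 512 bases were close in level, with means of 71.1 to 81.5. Solyc06g075830.1 had 76.9, 85.1 and 97.2 in LP, 68.6, 80.0 and 92.4 in PZ, and 71.0, 68.7 and 93.6 in CZ. Solyc06g075930.1 had 57.9, 57.9 and 66.6 in LP, 60.9, 73.3 and 79.3 in PZ, and 76.2, 62.0 and 123 in CZ. Solyc06g075800.1 had 55.7, 39.2 and 40.4 in LP, 72.5, 34.8 and 31.0 in PZ, and 49.9, 19.3 and 57.0 in CZ. The ranges of the last gene were wide in PZ and CZ and overlapped between all zones. Another close pair on chromosome 6, Solyc06g007210.2 and Solyc06g007220.2, at chr6:1282996-1286753, ran nearly level, with 80.8, 105 and 96.1 against 77.7, 103 and 107 in LP, 84.8, 92.5 and 66.9 against 94.1, 84.4 and 82.8 in PZ, and 73.3, 84.0 and 108 against 86.3, 90.7 and 112 in CZ. No difference between zones was called for any of these genes.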

How the data were processed

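CEL-Seq libraries of LP, PZ and CZ (3 each) were sequenced on 1 lane. Per the study's methods, reads of 36 bases were mapped locally by Bowtie2 2.1.0 on nuclear (SL2.50) and chloroplast sequence and assigned to genes by an HTSeq-based script. The use made of molecular identifiers, the strand setting and the normalization are not given in the sources used here. What is called a read here may thus be a sequenced read or a molecule counted once. The deposited values are a signal, reads divided by 1 factor per library by the authors. Every nonzero value was a whole number of steps of its library (100%, tolerance 0.0051), from which reads were recovered, 40286 to 144665 per library.

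The members and lists were chosen with earlier results of these data known. Genes at 6 or above in at least 1 library were tested with limma 3.58.1 (R 4.3.3) on log2(normalized count + 1), zone as the only factor, in all 9 libraries. Fold changes are on that scale. The fit was also run on simulated reads that gave every gene the same spread beyond counting, so variances that differ between genes were not checked. Calls required 1.5-fold and an adjusted p no higher than 0.05. Adjusted p-values without a tool are from limma. Named are the 10 highest genes, all called members, for each comparison up to 3 uncalled members each way with separate libraries, described members, those beside rank 100, the 3 smallest and 3 largest CVs, and members of equal-span groups and neighbouring pairs, these last chosen after their values were seen. Of the lists by description only ribosomal proteins held a member. No member matched the reference gene list, so names and sequences are not given. Alternatives were pseudocounts of 0.5 and 2, other filters and scalings, edgeR 4.0.16 and DESeq2 1.42.0 on recovered reads, a replicate block, only the zones compared, other rankings, and each library left out. Intervals (Wilson) cover counting error only. Tools were Python 3.11.15, pandas 2.3.3 and matplotlib 3.10.9.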

Additional observations from a re-analysis of the deposited data

How the results depend on the processing

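Depth limits the list: its genes had 596 to 3007 reads over the 9 libraries, so counting alone gives CVs of 5.72% to 12.5%. Of the 100 genes, 3 were called for LP against CZ, 1 for PZ against CZ and 0 for LP against PZ. With each gene's own variance (chosen after seeing the data) there were 0, 0 and 0 among these and 0, 1 and 0 among all genes tested. For PZ against CZ, DESeq2 and the fit of only these zones each gave 0. With the tabulated genes kept in the ranking there were 7 for LP against CZ and 2 for LP against PZ, and with 200 genes 11, 3 and 2. Among all genes tested (58, 13 and 6 called), no filter gave 32 and 7, a filter on the zone mean 24, 2 and 0, TMM scaling 37 and 7, edgeR 27 for PZ against CZ and 25 for LP against PZ, DESeq2 31, 2 and 0, and only the zones compared 9, 0 and 0. Under TMM scaling the calls split into 3 higher and 4 lower for PZ against CZ (9 and 4 with the deposited scaling) and 5 and 0 for LP against PZ (5 and 1). With 50 genes the mean share was 10.7% in LP, 10.5% in PZ and 11.8% in CZ, and with 200 genes 23.9%, 23.2% and 26.5%. Leaving out each library in turn gave 2 to 4, 1 to 2 and 0 to 0 calls among the list, 26 to 63, 3 to 20 and 0 to 8 among all genes tested, and mean shares of 16.0% to 17.0% in LP, 16.0% to 16.1% in PZ and 17.2% to 19.7% in CZ. None of the 22 fold changes of called or separate members recomputed under the alternatives changed sign. For most alternatives this was fixed in advance. With separate libraries, neither a left-out library nor another pseudocount can turn the sign. Each gene's own variance, the filters, the replicate block and only the zones compared leave the fold change as it was. Only the other scalings, edgeR and DESeq2 could have changed a sign.

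Libraries with the same replicate number shared deviations from their zone means only weakly: the correlations over all genes tested were 0.0272 to 0.112 across the 9 same-number pairs, and -0.0958 to 0.0426 across the 18 others, and each library correlated best with its own number in 17 of 18 comparisons with another zone (PZ1 was closer to LP3). Among the 100 genes alone these correlations were stronger, with a median of 0.416 (-0.0642 to 0.677) for same-number pairs and -0.193 for the others, and the median share of a gene's variance was 28.3% between numbers and 25.1% between zones, with more between numbers for 48 genes. As not every pair exceeded 0.1 in either set, the numbers were not taken to pair the libraries. With a replicate block, 5 and 2 of the list were called for LP against CZ and PZ against CZ, and 74, 20 and 11 of all genes tested. The calls added were Solyc12g013700.1, Solyc01g008080.2 (adjusted p = 0.0389 by limma) and, for PZ against CZ, Solyc01g109660.2 (adjusted p = 0.0295 by limma).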
